A study of Mus musculus with 8 samples.

Results

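The 3 genes described here, C1qa, C1qb and C1qc, encode the 3 chains of complement C1q, and all 3 of the 23278 genes in the deposited tables that carry these symbols were taken by name. They were chosen with their difference between SMA and WT motor neurons already known, so their values in that comparison are a description and carry no test. The mice were of the FVB/N strain and 1 day old (postnatal day 1), and total RNA was taken from the lumbar spinal cord. Spinal muscular atrophy (SMA) is a motor neuron disease caused by too little survival motor neuron (SMN) protein, and the mice were sampled before symptoms. SMA mice were SMN2+/+;SMNΔ7+/+;Smn-/-, which means that they lacked mouse Smn and carried the human SMN2 gene and a human SMN transgene without the exon that SMN2 mostly skips. WT mice were labelled only as WT, and whether they carried either human gene is not given in the sources used here. Ventral horn motor neurons and white matter glia were cut from hematoxylin-stained sections by laser, so captures were chosen by shape and position and not by a marker gene. The 4 groups were SMA motor neurons, WT motor neurons, SMA white matter and WT white matter, with 2 libraries each. The labels do not name the animals behind a library, so p-values measure the spread between these libraries.

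C1q is the recognition molecule of the classical complement pathway. It is assembled from A, B and C chains, joins the proteases C1r and C1s, and starts a cascade through C4 and C2 to C3. In the central nervous system microglia are the main source of C1q, and in the developing brain C1q and C3 tag synapses that microglia then remove. Because each C1q molecule needs all 3 chains, the levels of the 3 genes are given together and against each other. In bulk captures, fewer cells of a type and less RNA per cell cannot be told apart, and a cell process caught beside a motor neuron is counted with it.

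The 3 genes lie next to one another on mouse chromosome 4. In the RefSeq annotation of GRCm38.p6 the protein-coding genes run Ephb2, C1qb, C1qc, C1qa and Epha8. The deposited values were made on mm9 and are matched here by symbol only. The RefSeq promoter table held 2 of the 3 genes, and C1qa is only named. The windows reach from 250 bases before to 50 bases after the start of the gene, 5′ to 3′ on the strand of the gene, and are shown because these neighbouring genes moved together across the libraries. Capitals mark every match, on either strand, to GAGGAA, the core bound by the macrophage factor PU.1, or to TGCTGA, the core of sites bound by MAF factors. C1qb lies at chr4:136886151-136886450 and C1qc at chr4:136892865-136893164, both on the minus strand.
C1qb: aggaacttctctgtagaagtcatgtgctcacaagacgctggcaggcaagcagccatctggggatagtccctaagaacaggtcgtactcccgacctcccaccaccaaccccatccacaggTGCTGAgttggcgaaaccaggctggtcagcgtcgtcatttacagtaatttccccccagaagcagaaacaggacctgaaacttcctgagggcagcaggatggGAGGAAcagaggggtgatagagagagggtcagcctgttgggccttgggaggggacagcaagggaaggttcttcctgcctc
C1qc: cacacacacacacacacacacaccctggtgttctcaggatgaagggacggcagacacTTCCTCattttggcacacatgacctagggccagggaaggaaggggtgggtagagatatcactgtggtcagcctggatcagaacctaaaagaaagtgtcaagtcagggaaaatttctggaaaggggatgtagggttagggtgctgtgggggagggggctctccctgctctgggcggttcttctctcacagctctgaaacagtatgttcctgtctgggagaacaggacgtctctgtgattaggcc
The C1qb window held GAGGAA at position -30 and TGCTGA at position -131, counted from the start of the gene. The C1qc window held GAGGAA on the other strand, read as TTCCTC, at position -193. GAGGAA was present in 28.3% and TGCTGA in 19.5% of 32851 RefSeq promoter windows of this length. Matches on both strands were also searched for GGAA and GAAA with any 2 bases between them (in 2.72% of windows), for GAAA and GAAA with any 2 bases between them (3.44%), for TGANTCA (7.81%) and for TATAAA (13.6%), and these were in neither window. The first and second of these share the letters GAAA at their end. A match describes these letters and is not evidence that a factor binds there.

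The deposited values are RPKM, read numbers divided by the length of the gene model and by the library total. Their steps corresponded to a scaling by 77.5 to 102.8 M reads per library, and 11539 to 12796 genes reached 1 RPKM in a library. Smn1, the mouse gene removed in the SMA mice, was listed at 0 in the 4 SMA libraries, at 6.82 and 2.93 RPKM in WT motor neurons and at 5.30 and 14.3 RPKM in WT white matter. The 10 motor neuron markers summed to 570 and 586 RPKM in SMA motor neurons and 708 and 730 RPKM in WT motor neurons, against 20.5 and 10.9 RPKM in SMA white matter and 11.6 and 7.98 RPKM in WT white matter. The 10 myelinating oligodendrocyte markers summed to 78.9 to 115 RPKM in SMA and 40.9 to 65.0 RPKM in WT motor neurons, and to 2359 to 4642 RPKM in SMA and 1806 to 3726 RPKM in WT white matter, so both captures carried the markers of their labels. Fewest genes at 1 RPKM and most ribosomal Rn45s were found in SMA motor neuron replicate 2 (Rn45s at 33.4% of its RPKM sum, against 19.4 to 29.5% in the other libraries). Xist lay at 12.6 to 37.0 RPKM in the first replicates and did not exceed 0.0581 RPKM in the second replicates, so each group paired a library with and a library without this transcript of the inactive X chromosome.

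C1qa encodes the A chain, and its gene model of 1082 bases was the least abundant of the 3. C1qa stood at 5.84 and 5.26 RPKM in SMA motor neurons (516 and 469 reads worked out from the RPKM steps) and at 2.83 and 0.465 RPKM in WT motor neurons (279 and 39 reads). In white matter C1qa stood at 15.7 and 16.7 RPKM in SMA (1642 and 1859 reads) and at 16.8 and 15.9 RPKM in WT (1579 and 1661 reads). Both SMA motor neuron libraries lay above both WT motor neuron libraries, while the white matter libraries of the 2 genotypes overlapped. The WT motor neuron libraries differed 6.09-fold between themselves, which is the widest gap between replicates for any of the 3 genes and rests on the 39 reads of replicate 2.

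C1qb encodes the B chain, with a gene model of 1061 bases. C1qb stood at 18.8 and 26.5 RPKM in SMA motor neurons (1629 and 2317 reads) and at 3.13 and 7.64 RPKM in WT motor neurons (302 and 628 reads). In white matter C1qb stood at 74.5 and 83.7 RPKM in SMA (7644 and 9130 reads) and at 53.3 and 51.4 RPKM in WT (4919 and 5276 reads). SMA libraries lay above WT libraries in both regions with no overlap, and white matter lay above motor neurons in both genotypes.

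C1qc encodes the C chain, with a gene model of 1054 bases. C1qc stood at 32.4 and 23.2 RPKM in SMA motor neurons (2786 and 2012 reads) and at 8.16 and 10.3 RPKM in WT motor neurons (783 and 839 reads). In white matter C1qc stood at 78.1 and 83.7 RPKM in SMA (7960 and 9077 reads) and at 57.0 and 67.6 RPKM in WT (5217 and 6892 reads). The 4 groups did not overlap for C1qc, and the order was SMA white matter, WT white matter, SMA motor neurons and WT motor neurons. C1qb had the same order by level. For C1qa the SMA and WT white matter means of 16.2 ± 0.722 and 16.3 ± 0.650 RPKM (SD, n = 2 each) differed by less than the spread between replicates, and the motor neuron groups followed in the same order as for the other chains.

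**Figure D1:**
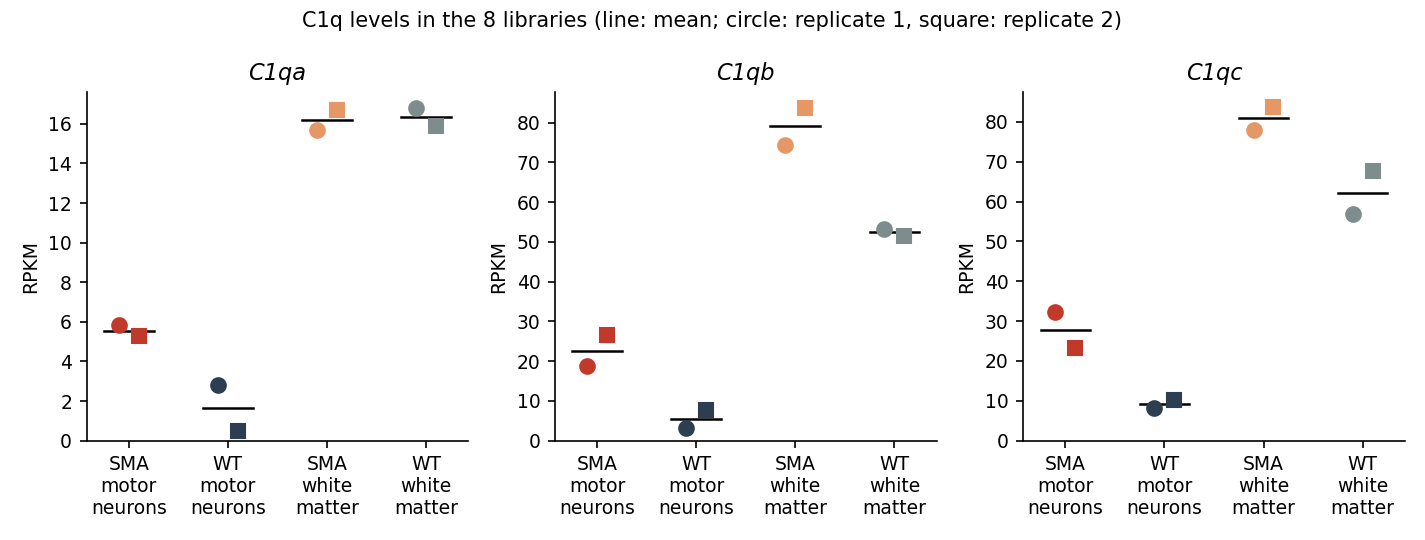
RPKM (y axis, from 0) of C1qa, C1qb and C1qc in SMA motor neurons, WT motor neurons, SMA white matter and WT white matter, where each point is 1 library and the line is the mean of 2 libraries. White matter lies above motor neurons for each gene, and both SMA motor neuron libraries lie above both WT motor neuron libraries, with C1qa in WT motor neurons at 2.83 and 0.465 RPKM.

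Within a library, the rank of C1q differed by region. In motor neurons it was higher in SMA than in WT for each chain, and in white matter the C1qa rank was lower in SMA. Among the genes detected in each library, C1qc lay above 88.4% and 87.1% in SMA motor neurons, above 64.4% and 71.2% in WT motor neurons, above 96.9% and 97.8% in SMA white matter and above 96.9% and 97.8% in WT white matter. C1qb lay above 79.8% and 89.0% of detected genes in SMA motor neurons and above 43.4% and 64.2% in WT motor neurons. C1qa lay above 52.9% and 59.4% in SMA motor neurons and above 41.7% and 18.1% in WT motor neurons. In white matter the B and C chain genes therefore stood among the highest few percent of detected genes in both genotypes, and C1qa stood above 78.4 to 82.2% in SMA and 84.3 to 85.7% in WT.

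Motor neuron captures of SMA mice held more C1q RNA than those of WT mice, for each of the 3 chains. C1qa averaged 5.55 ± 0.408 RPKM in SMA and 1.65 ± 1.67 RPKM in WT motor neurons, C1qb 22.7 ± 5.45 and 5.38 ± 3.19 RPKM, and C1qc 27.8 ± 6.50 and 9.21 ± 1.49 RPKM (SD, n = 2 libraries per group). The ratio of SMA to WT means was 3.37 for C1qa, 4.21 for C1qb and 3.01 for C1qc. Set lowest SMA library against highest WT library, the ratios were 1.86, 2.46 and 2.26. On the log2(RPKM + 1) scale, which understates the change of low genes, the differences were 1.47 ± 0.43 for C1qa, 1.97 ± 0.36 for C1qb and 1.48 ± 0.26 for C1qc (SE), where the median of all 13948 genes tested was -0.05.

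All 3 genes had both SMA motor neuron libraries above both WT libraries, which 12.7% of the genes tested also had. The 3 log2 differences were larger than those of 99.6%, 99.9% and 99.7% of genes. These values chose the genes, so no p is given for them and nothing is read from the count. The background of calls was 0.0% of 13948 genes by limma with Benjamini-Hochberg adjustment (0 genes, with 609 at unadjusted p under 0.05 and 1 gene by limma-voom on recovered reads), and 123 genes were called without SMA motor neuron replicate 1. The C1qa difference moved most when a library was left out, to 0.77 without WT motor neuron replicate 2. Leaving out 1 library could not turn the sign for any chain, since both SMA libraries lay above both WT libraries. Myelinating oligodendrocyte markers also summed higher in the SMA motor neuron captures, as given above, and astrocyte Gfap stood at 23.5 and 18.2 RPKM in SMA and 4.795 and 9.04 RPKM in WT motor neurons. Gfap had the largest difference of the 10 astrocyte markers, chosen here after its values were seen. The astrocyte markers had a median log2 difference of 0.18, and their sums overlapped, at 888 and 722 RPKM in SMA and 805 and 726 RPKM in WT motor neurons. The part of other captured cells in the C1q difference was not tested.

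In white matter, which was not used to choose the genes, no C1q gene differed between genotypes past the threshold. C1qb averaged 79.1 ± 6.51 RPKM in SMA and 52.4 ± 1.36 RPKM in WT white matter (SD, n = 2 each), a log2 difference of 0.58 ± 0.36 (SE, 95% interval -0.22 to 1.38, limma adjusted p = 0.756). C1qc averaged 80.9 ± 4.02 RPKM in SMA and 62.3 ± 7.54 RPKM in WT white matter, a log2 difference of 0.38 ± 0.26 (95% interval -0.22 to 0.97, limma adjusted p = 0.765). The log2 difference of C1qa was -0.01 ± 0.43 (95% interval -0.97 to 0.95, limma adjusted p = 0.998), and its sign turned without SMA white matter replicate 1 (0.03) or WT white matter replicate 1 (0.03). The intervals do not exclude a rise of the B chain gene as large as 1.38 on the log2 scale or a fall as large as 0.22.

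The white matter differences were also read against all genes. The median gene lay 0.27 higher in SMA than in WT white matter on the log2 scale, a shift that quantile normalization moved to -0.01. Relative to that median, the differences were -0.29 for C1qa, 0.31 for C1qb and 0.10 for C1qc. C1qb and C1qc had both SMA libraries above both WT libraries, as did 39.7% of all genes, and limma called 0.0% of genes (0 of 13948, with 880 at unadjusted p under 0.05 and 1 gene by limma-voom on recovered reads).

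C1q was lower in motor neurons than in white matter in both genotypes, and the gap was narrower in SMA. These comparisons share the motor neuron libraries with the contrast that chose the genes, which bears on their size and on their p-values. In SMA, the motor neuron mean was 34.3% of the white matter mean for C1qa, 28.7% for C1qb and 34.3% for C1qc. In WT, it was 10.1%, 10.3% and 14.8%. For each of the 3 genes both motor neuron libraries lay below both white matter libraries, in SMA and in WT. That order was seen for 37.2% of all genes in SMA and 31.0% in WT, and the opposite order for 26.7% in SMA and 39.0% in WT. The narrower gap in SMA is the difference that chose the genes seen against white matter, and it was not tested.

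Between the SMA regions the log2 differences were -1.39 ± 0.43 for C1qa (SE, limma adjusted p = 0.0343), -1.78 ± 0.36 for C1qb (limma adjusted p = 0.00552) and -1.53 ± 0.26 for C1qc (limma adjusted p = 0.00274). All 3 genes were called lower in SMA motor neurons, where limma called 17.2% of genes lower and 30.8% in either direction. The C1qb and C1qc calls held with any 1 of the 8 libraries left out. The C1qa call was lost without SMA motor neuron replicate 2 (limma adjusted p = 0.0657), SMA white matter replicate 1 (0.126) or replicate 2 (0.1455), or WT white matter replicate 1 (0.0597) or replicate 2 (0.0593). The WT libraries enter that comparison only through the shared estimate of the spread. The background count of 4295 genes called was 2272 when SMA white matter replicate 1 was left out and 2410 when replicate 2 was.

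Between the WT regions the chain genes were 9.91-fold (C1qa), 9.73-fold (C1qb) and 6.76-fold (C1qc) higher in white matter by group means. The log2 differences, motor neurons minus white matter, were -2.87 ± 0.43, -3.16 ± 0.36 and -2.63 ± 0.26 (SE), with limma adjusted p = 0.00107, 2.4e-04 and 1.4e-04. Limma called 9.85% of genes lower in WT motor neurons and 28.4% in either direction, and all 3 chain genes were among those called lower. Over 18 alternative settings the log2 difference was -4.18 to -2.18 for C1qa, -3.96 to -2.63 for C1qb and -3.25 to -2.48 for C1qc. The choice of the genes can favour low WT motor neuron values, so these p-values can lean toward a call. No setting removes that. The background count of 3967 genes called dropped when a compared library was left out, to 2015 and 2108 without WT motor neuron replicate 1 or 2, and to 2586 and 2118 without WT white matter replicate 1 or 2.

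**Figure D2:**
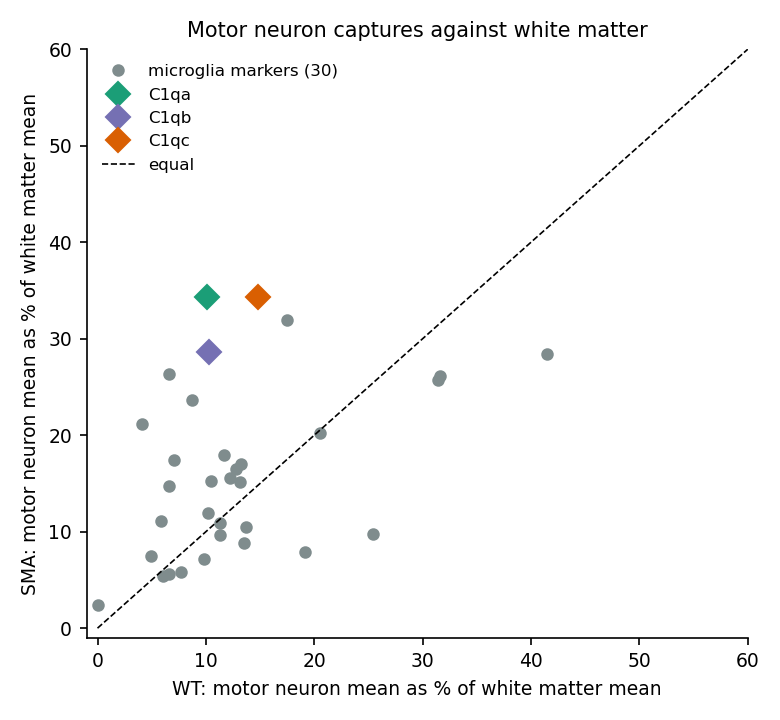
Mean RPKM in motor neurons as a percent of mean RPKM in white matter, in WT (x axis) and in SMA (y axis), for 30 microglia markers (grey circles) and the 3 C1q genes (coloured diamonds), with a dashed line where both are equal. The C1q genes lie at 10.1 to 14.8% in WT and 28.7 to 34.3% in SMA, above the line, and 16 of the 30 microglia markers also have a higher percent in SMA.

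The balance of the chains was measured per length within each library, which removes any change shared by the 3 genes. The summed C1q level was 57.0 and 54.9 RPKM in SMA motor neurons, 14.1 and 18.4 RPKM in WT motor neurons, 168 and 184 RPKM in SMA white matter and 127 and 135 RPKM in WT white matter. C1qa gave 10.2% and 9.58% of that sum in SMA motor neurons, 20.1% and 2.53% in WT motor neurons, 9.32% and 9.07% in SMA white matter and 13.2% and 11.8% in WT white matter. The C1qa share thus lay between 9.07% and 13.2% in the SMA motor neuron and the white matter libraries, and WT motor neurons held both the highest and the lowest share.

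C1qb gave 33.0% and 48.2% of the sum in SMA motor neurons, 22.1% and 41.6% in WT motor neurons, 44.3% and 45.4% in SMA white matter and 42.0% and 38.1% in WT white matter. C1qc gave 56.8% and 42.2% in SMA motor neurons, 57.8% and 55.9% in WT motor neurons, 46.4% and 45.5% in SMA white matter and 44.8% and 50.1% in WT white matter. The C chain gene had a larger share than the B chain gene in all 4 white matter libraries, by the widest margin in WT replicate 2, and in 3 of 4 motor neuron libraries, with SMA motor neuron replicate 2 as the exception.

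No difference in chain balance between the regions was found by an exact two-sided permutation test over libraries (4 motor neuron against 4 white matter libraries, smallest p possible 0.0286), with adjustment over the 3 ratios. The mean log2 ratio of C1qb to C1qc was -0.60 ± 0.66 in motor neurons and -0.14 ± 0.17 in white matter (SD, n = 4 each, exact permutation p = 0.229, adjusted 0.686). The mean log2 ratio of C1qa to C1qb was -2.05 ± 1.61 in motor neurons and -1.98 ± 0.35 in white matter (exact permutation p = 0.829, adjusted 0.829), and that of C1qa to C1qc was -2.65 ± 1.27 and -2.12 ± 0.26 (exact permutation p = 0.657, adjusted 0.829). The spread between motor neuron libraries was 3 or more times that between white matter libraries in each ratio. Each region pooled SMA and WT libraries, so any genotype difference adds to this spread, and the test could miss a difference between regions. The sign of the C1qa to C1qb difference turned, to 0.60, without WT motor neuron replicate 2.

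**Figure D3:**
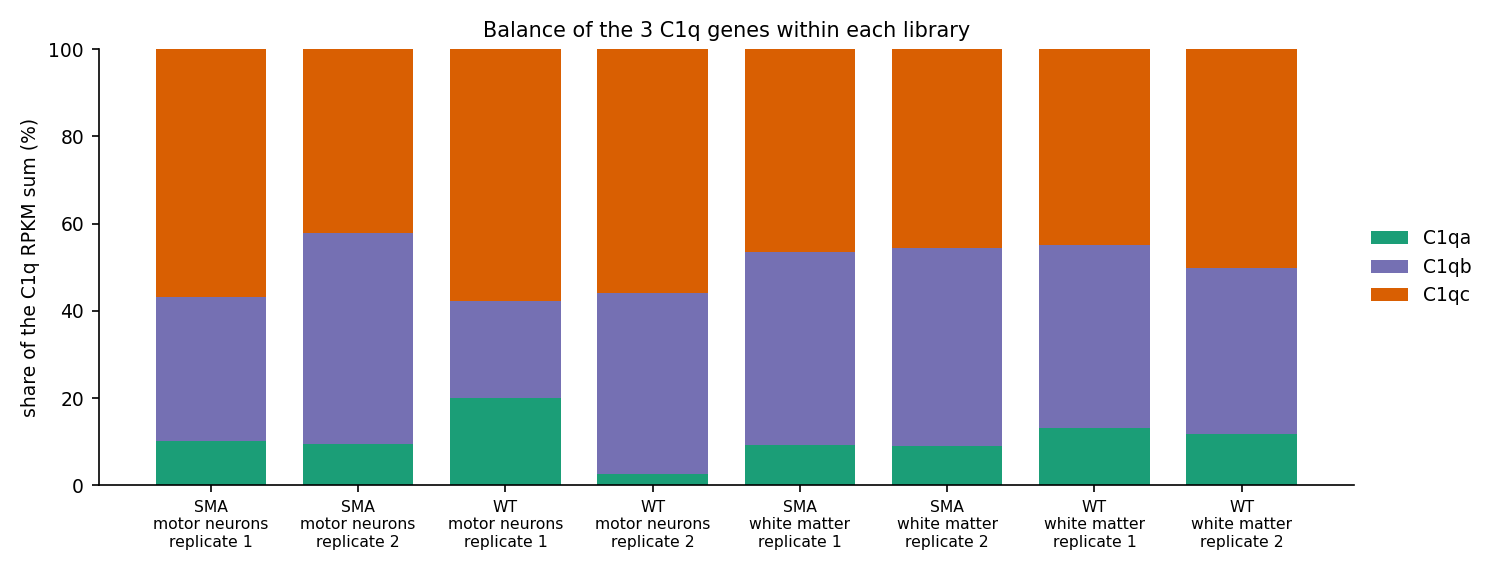
Share (y axis, percent) of C1qa, C1qb and C1qc in the summed C1q RPKM of each of the 8 libraries, as stacked bars that add up to 100%. The 4 white matter bars are alike, with C1qa at 9.07 to 13.2%, and the 2 WT motor neuron bars differ most, with C1qa at 20.1% and 2.53%.

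Microglia markers were set beside C1q in every library, since microglia are its known main source. The 30 markers summed to 120 and 110 RPKM in SMA motor neurons, 73.3 and 81.6 RPKM in WT motor neurons, 645 and 748 RPKM in SMA white matter and 470 and 560 RPKM in WT white matter. All 30 were detected in every library except Ptprc, the common leukocyte antigen, which was listed at 0 in both WT motor neuron libraries. The motor neuron captures thus held RNA of microglia markers in both genotypes, at lower sums than white matter, and both SMA motor neuron sums lay above both WT ones.

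Between SMA and WT motor neurons the median log2 difference of the 30 markers was 0.26, with 21 positive, where the C1q genes lay at 1.47 to 1.97. The markers ranged from -0.53 for Siglech to 1.71 for Cd68, which lay within the range of the C1q genes. Cd68 stood at 3.11 and 4.14 RPKM in SMA and 0.229 and 0.602 RPKM in WT motor neurons. The log2(RPKM + 1) scale understates the change of markers that are low in motor neurons. Both SMA libraries lay above both WT libraries for 12 markers and below for 0, beside 12.7% and 15.5% of all genes. In limma 0 of 30 passed, beside 0.0% of all genes. In white matter the median was 0.40, with 17 markers non-overlapping and higher in SMA (39.7% of all genes were). Again 0 of 30 passed, beside 0.0% of all genes. Between regions, all 30 were called lower in SMA motor neurons (median log2 -2.24) and 28 in WT motor neurons (median -2.32), where 17.2% of all genes in SMA and 9.85% in WT were called lower.

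The most abundant markers included Tyrobp, Ctss, Laptm5, Ly86 and Fcer1g. Tyrobp, a signalling adaptor of microglial receptors, stood at 17.5 and 14.2 RPKM in SMA motor neurons and 6.77 and 7.34 RPKM in WT motor neurons, and at 81.3 and 111 RPKM in SMA and 62.6 and 48.0 RPKM in WT white matter. Ctss, a lysosomal protease, stood at 10.6 and 11.3 RPKM in SMA and 4.52 and 6.93 RPKM in WT motor neurons. These 2 had no overlap between genotypes in motor neurons. Laptm5, a lysosomal membrane protein, averaged 12.1 ± 3.10 RPKM in SMA and 8.95 ± 2.72 RPKM in WT motor neurons, Ly86, a partner of a Toll-like receptor homologue, 4.04 ± 0.509 and 4.76 ± 1.25 RPKM, and Fcer1g, an Fc receptor subunit, 6.88 ± 5.59 and 3.30 ± 1.29 RPKM (SD, n = 2 each).

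The summed C1q level was 47.4% and 50.0% of the summed microglia level in SMA motor neurons, 19.3% and 22.5% in WT motor neurons, 26.1% and 24.6% in SMA white matter and 27.1% and 24.1% in WT white matter. White matter of both genotypes held nearly the same ratio, WT motor neurons lay somewhat below it and SMA motor neurons above it, with no overlap between groups of motor neurons. The motor neuron ratios contain the values that chose the genes, so they are given without a test. As mean log2 levels, C1q minus markers was 1.28 higher in SMA than in WT motor neurons and 1.12 higher with the median over the markers in place of the mean.

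**Figure D4:**
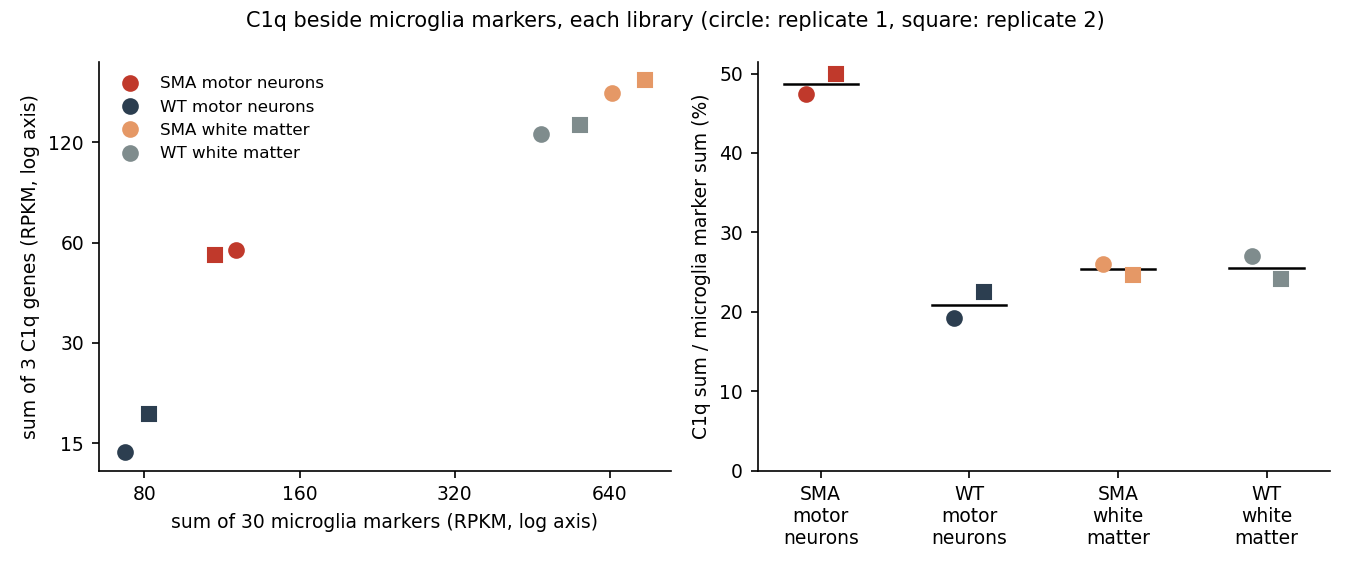
Left, summed RPKM of the 3 C1q genes (y axis, log) against summed RPKM of 30 microglia markers (x axis, log) in each library. Right, the first sum as a percent of the second (y axis), where points are libraries and lines group means. SMA motor neurons lie at 47.4 and 50.0%, and the other 6 libraries at 19.3 to 27.1%.

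Markers of other myeloid cells were low in motor neurons. The 10 border macrophage markers summed to 1.90 and 0.925 RPKM in SMA motor neurons and 0.504 and 1.09 RPKM in WT motor neurons, against 31.0 and 18.6 RPKM in SMA white matter and 18.8 and 24.2 RPKM in WT white matter. Pf4 was listed at 0 in both WT motor neuron libraries and stood at 0.250 and 0.124 RPKM in SMA motor neurons. Blood myeloid markers summed to 4.08 and 4.17 RPKM in SMA motor neurons and 1.92 and 0.322 RPKM in WT motor neurons. That sum in SMA motor neurons was Ly6c2, at 4.08 and 4.17 RPKM, with the other 9 markers, the neutrophil genes S100a8 and S100a9 among them, listed at 0. In white matter S100a9 stood at 11.4 and 10.6 RPKM in SMA and 9.95 and 0.0848 RPKM in WT.

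The partners of C1q in the classical pathway were low in all captures. C1ra, a C1r gene, was listed at 0 in all 4 motor neuron libraries and reached 0.176 RPKM at most. C1rb reached 0.544 RPKM and C1s 0.963 RPKM, both in WT white matter replicate 2. C2 stood at 0.320 and 1.14 RPKM in SMA motor neurons and 0.980 and 0 RPKM in WT motor neurons. C4b, a C4 gene, stood at 0 and 0.268 RPKM in SMA motor neurons and 0.0387 and 0.0287 RPKM in WT motor neurons. In white matter C4b stood at 1.71 and 2.005 RPKM in SMA and 2.52 and 1.96 RPKM in WT. C4b passed as lower in motor neurons in both genotypes (limma adjusted p = 0.0138 in SMA and 0.00515 in WT), and so did its near-identical neighbour C4a (0.0444 and 0.00954), with which it can share reads.

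C3, the central component of complement, had no more than 0.959 RPKM in any library and was not tested because of the filter. It stood at 0.959 and 0.882 RPKM in SMA motor neurons, 0.302 and 0.548 RPKM in WT motor neurons, 0.358 and 0.307 RPKM in SMA white matter and 0.379 and 0 RPKM in WT white matter. Serping1, the inhibitor of C1r and C1s, stood at 1.63 and 0.540 RPKM in SMA and 0.477 and 1.25 RPKM in WT motor neurons, and at 10.9 and 8.49 RPKM in SMA and 3.32 and 3.26 RPKM in WT white matter. It was lower in motor neurons in both genotypes (limma adjusted p = 0.00205 in SMA and 0.0417 in WT) and did not pass between SMA and WT white matter (log2 1.31, limma adjusted p = 0.727).

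Of 42 other complement genes in the tables, 21 passed the filter. Between SMA and WT, 0 of 21 were called in either region, beside 0.0% of all genes. The median log2 differences were 0.00 in motor neurons and 0.27 in white matter, where the medians of all genes were -0.05 and 0.27. Between regions 2 were higher and 5 lower in SMA motor neurons, and in WT motor neurons 4 were called higher and 5 lower. Of all genes, 13.6% were called higher and 17.2% lower in SMA motor neurons, and 18.6% higher and 9.85% lower in WT motor neurons. The most abundant, Clu, a secreted inhibitor of the terminal complex, averaged 73.4 ± 3.15 RPKM in SMA and 76.6 ± 18.4 RPKM in WT motor neurons, against 32.8 ± 9.90 RPKM in SMA and 24.2 ± 8.09 RPKM in WT white matter (SD, n = 2 each), and was higher in motor neurons (limma adjusted p = 0.0217 in SMA and 0.00447 in WT). Cd59a, a membrane inhibitor of that complex, averaged 12.7 ± 8.64 RPKM in SMA and 20.1 ± 1.46 RPKM in WT motor neurons, against 7.94 ± 5.90 RPKM in SMA and 5.79 ± 0.717 RPKM in WT white matter. The other abundant members were Masp1, a protease of the lectin pathway, Sez6, Vtn and Csmd3.

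Among 15 genes for receptors of C1q or of complement fragments, 9 passed the filter. Between SMA and WT 0 of 9 were called in either region, beside 0.0% of all genes. Between regions 0 were called higher and 3 lower in SMA motor neurons, and 1 higher and 2 lower in WT motor neurons. Of all genes, 13.6% were called higher and 17.2% lower in SMA, and 18.6% higher and 9.85% lower in WT. Itgam, the alpha chain of complement receptor CR3, stood at 0.238 and 0.215 RPKM in SMA motor neurons and 1.86 and 0.524 RPKM in WT motor neurons, against 8.02 and 8.29 RPKM in SMA white matter and 10.4 and 9.71 RPKM in WT white matter. Itgam in motor neurons was therefore ordered opposite to C1q, with both SMA libraries below both WT libraries, and did not pass between genotypes (log2 -0.77 ± 0.38 SE, limma adjusted p = 1). Lair1, an inhibitory receptor that binds the C1q tail, averaged 0.564 ± 0.182 RPKM in SMA and 0.267 ± 0.189 RPKM in WT motor neurons. Itgam and Lair1 were called lower in motor neurons in both genotypes (limma adjusted p = 0.000655 for Itgam and 0.01003 for Lair1 in SMA, and 0.0014 and 0.00654 in WT). Calr, C1qbp and Lrp1, broadly expressed proteins that bind C1q or its targets, had means of 20.7 to 116 RPKM in every group. C1qbp was called higher in WT motor neurons, at a mean of 79.6 RPKM against 44.9 RPKM in WT white matter (log2 0.80, limma adjusted p = 0.0419).

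Of 11 genes for factors and signals known to act on C1q or on microglia, 9 passed the filter. Between genotypes 0 of 9 were called, beside 0.0% of all genes, so nothing is read from that count. Spi1, which encodes PU.1, stood at 0.597 and 0.801 RPKM in SMA motor neurons and 1.60 and 0.368 RPKM in WT motor neurons, and at 11.5 and 10.1 RPKM in SMA and 9.23 and 5.93 RPKM in WT white matter. Spi1 and Irf8, an interferon regulatory factor of microglia, were called lower in motor neurons in both genotypes (limma adjusted p = 0.00109 and 0.0276 in SMA, and 0.00349 and 0.0219 in WT). Of the 9, 2 were called lower and 0 higher in SMA motor neurons, and 2 lower and 1 higher in WT motor neurons. Of all genes, 17.2% were called lower and 13.6% higher in SMA, and 9.85% lower and 18.6% higher in WT. Csf1, a growth factor of microglia, averaged 12.7 ± 8.45 RPKM in SMA and 5.27 ± 0.180 RPKM in WT motor neurons, where SMA replicate 1 had 18.7 RPKM and replicate 2 had 6.72 RPKM. Maf, Il34, Tgfb1, Irf1 and Runx1 were tested and not called in any of the 4 comparisons, and Cebpa and Cebpb did not pass the filter.

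Likeness to C1q was measured over the 8 libraries as the Pearson correlation of log2(RPKM + 1) with the mean of the 3 chain genes, without a test, since libraries share region and depth. The chain genes correlated at 0.973 for C1qb and C1qc, 0.929 for C1qa and C1qc and 0.875 for C1qa and C1qb. The 10 most similar of 13945 genes were Pltp, Zfp36, Pik3cg, Yap1, Gng10, Unc93b1, Zfp36l1, Tcn2, Sec61a1 and Shcbp1, with r of 0.970 to 0.987. Pltp, a phospholipid transfer protein, stood at 30.01 and 20.9 RPKM in SMA motor neurons and 11.5 and 9.35 RPKM in WT motor neurons, and at 80.2 and 69.9 RPKM in SMA and 60.4 and 56.5 RPKM in WT white matter. The order of the 4 groups was that of C1qb and C1qc.

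The 30 microglia markers had a median r of 0.896 (0.756 to 0.975), with 7 among the 100 most similar genes, where the median of all genes was 0.0916. With the mean of each region subtracted, the 10 most similar genes were Dmbx1, Syce1l, Prpf3, C1qtnf2, Metap1d, Cnot10, Slc26a9, Lhx5, Tubg1 and Mir130a, with r of 0.947 to 0.989, and 0 of these were among the first 10. C1qtnf2, a secreted protein with a C1q-like domain, stood at 2.32 and 2.35 RPKM in SMA motor neurons and 0.109 and 0 RPKM in WT motor neurons, and at 0.956 and 0.859 RPKM in SMA and 0 and 0.384 RPKM in WT white matter. This second list rests on the genotype difference in motor neurons that chose the C1q genes.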

How the data were processed

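RNA-seq was done on 8 libraries, 2 in each of 4 groups, with groups and replicate numbers from the titles in the labels. The authors deposited 1 table of RPKM values per library, and per the submitters' processing notes TopHat, bedtools, DESeq and mm9 were used. For versions, gene annotation, counting rule and use of strand, the sources used here give nothing. Per the labels' protocols, cDNA was amplified with a NuGEN kit, so reads are not independent molecules and read numbers cover counting error only.

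Reads were worked out from the RPKM steps: 16207 of 16209 genes above 0 in at least 5 libraries (99.99%) gave whole reads within 0.02 reads. Without Rn45s, 45.0 to 68.2 M reads lay on genes.

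The main test was limma 3.58.1 in R 4.3.3 on log2(RPKM + 1), with 4 group means over 8 libraries, eBayes with trend and two-sided p-values adjusted by Benjamini-Hochberg over the 13948 of 23278 genes with at least 1 RPKM in at least 2 libraries, and a threshold of 0.05. It was tested on simulated data. Chain ratios were tested with an exact permutation test (scipy 1.17.1). Python 3.11.15, numpy 2.4.6, pandas 2.3.3 and matplotlib 3.10.9 were used.

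The members and the 14 gene lists were chosen with earlier results of these data known. Genes named are the 3 members, up to 6 members of a list with the highest mean, the early classical pathway genes, all regulators and the 10 most similar genes, apart from a few that are not reported here, with Smn1, Xist, Rn45s and Ptprc as library checks, and which of these have values printed was chosen after they were seen. Cd68 and Siglech are named as the ends of the range of the microglia markers. Spi1 is listed under an older symbol. Replicate numbers have no stated pairing, so no block was used. Alternatives were other pseudocounts, filters, scalings and fits, a replicate block, and leaving out each library.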

Additional observations from a re-analysis of the deposited data

Results flagged for a closer look

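The C1q sum as a percent of the summed level of 30 microglia markers differed between regions in opposite directions in the 2 genotypes. Its mean was 48.68% in SMA motor neurons and 25.35% in SMA white matter, with both motor neuron libraries above both white matter libraries. In WT it was 20.89% in motor neurons and 25.56% in white matter, with both motor neuron libraries below both white matter libraries. The difference was not tested, because the C1q values of the motor neuron libraries chose the genes.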

How the results depend on the processing

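The counts of calls and the C1q log2 changes were recomputed under 18 alternative settings, 8 of which leave out 1 library, the chain ratios under 9, and the comparison with microglia markers and the likeness under 1 each. A group left with 1 library is then assumed to vary like the other groups. For SMA against WT in motor neurons, the log2 change of C1qa ranged from 0.77 to 2.16 with a library left out and was 2.18 by limma-voom on recovered reads. C1qb ranged from 1.43 to 2.50 and C1qc from 1.25 to 1.715. The count of genes called, 0, was 1 with no filter (Olfr329-ps), 1 by limma-voom (Cdkn1a) and 0 to 123 with a library left out.

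In white matter, C1qa ranged from -0.054 to 0.031 with a library left out. Median-of-ratios scaling, quantile normalization and limma-voom moved it further, to -0.33, -0.36 and -0.38, and moved C1qb to 0.25, 0.22 and 0.22 and C1qc to 0.05, 0.02 and 0.01, with no C1q gene called. The count of 0 was 1 (Ptgds) after quantile normalization, in a fit of the 4 compared libraries and by limma-voom, and 0 to 1 with a library left out. Between WT regions 2015 to 5333 genes were called with a library left out. Of the 3967, 65.4% were higher in motor neurons, against 55.6% with median-of-ratios scaling, 51.7% after quantile normalization and 40.9% by limma-voom. The 3 C1q log2 differences there stayed negative under each setting, which the lack of overlap fixes in advance for settings that leave out 1 library. Between SMA regions 2415 genes were called in a fit of the 4 compared libraries and 2272 to 5539 with a library left out. There the C1qa call was lost with a pseudocount of 0.1 RPKM (-1.53, limma adjusted p = 0.1055) or 0.5 RPKM (-1.465, 0.05695) and with no filter (-1.39, 0.0772), and the change ranged from -1.46 to -1.33 with a library left out. The cause was not tested.

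The C1qa to C1qb difference between regions turned from -0.07 to 0.34 with ratios of (RPKM + 1) and ranged from -0.70 to 0.60 with a library left out. C1qa to C1qc ranged from -0.90 to 0.078 and C1qb to C1qc from -0.73 to -0.20. C1q minus microglia markers, with the median over markers, was 1.12 for SMA against WT motor neurons (main 1.28) and -0.49 for motor neurons against white matter in WT (main -0.69). With region means subtracted, 0 of the 10 genes most similar to C1q stayed.

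No label says that equal replicate numbers share an animal or a day, and deviations of same-numbered libraries correlated at 0.0742 in motor neurons and 0.0268 in white matter. With the replicate block, counts were 0 (SMA against WT in motor neurons), 0 (white matter), 3848 (WT regions) and 4138 (SMA regions), and no C1q call changed (C1qa between SMA regions, adjusted p = 0.0362). C1qa in WT motor neuron replicate 2 rests on 39 reads, while C1qb had 628 and C1qc 839 reads in the same library. Why C1qa was low there was not tested.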
